A study of Mus musculus with 6 samples.

Results

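Growing oocytes make most of the messenger RNA that carries them through meiosis and the first days of the embryo, and they keep much of it silent until it is needed. RNA-binding proteins hold these messages with short poly(A) tails, cytoplasmic polyadenylation switches them on at meiotic resumption, and adaptors that recruit deadenylases clear them afterwards. The 10 genes described here encode proteins of this cycle of storage, activation and decay, and were chosen by symbol: Ddx4, Dazl, Ybx2, Cpeb1, Zar1, Btg4, Patl2, Lsm14b, Mos and Mael. All 10 were found among the 33036 features of a table of messenger and long noncoding RNA in whole mouse ovary.

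The table holds 6 libraries from female C57BL/6J mice, 3 from a normal-pressure group and 3 from a hypobaric hypoxia group, each group of 15 mice. Controls lived in Lanzhou (1500 m in the titles, 1588 m and 83.56 kPa in the series text, 17.8 kPa oxygen), and the exposed mice in a chamber set to a simulated 6500 m (43.12 kPa, 8.1 kPa oxygen), although their descriptions give 5000 m. Exposure lasted 15 days in the series text and 15, 16 and 17 days in the descriptions of replicates 1, 2 and 3. The series text gives an age of 8 weeks and the descriptions a range of 6 to 8, and light and dark hours are 12 and 12 except for controls 2 and 3, labelled with 13 and 14 dark hours. Both groups were synchronised by gavage with levonorgestrel and ethinylestradiol, with doses of 0.1 and 0.02 mg/kg labelled for the hypoxia group alone, so that a difference in hormone dose and hypoxia cannot be told apart. Which mouse, or how many, gave each library is not stated, so p-values describe variation among these libraries only, and part of it may be technical.

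Values are TPM, a read measure corrected for transcript length and scaled to a fixed total in every library. Read depth cannot be recovered from such values and is unknown here. Protein-coding genes other than Zfp949, a single very abundant feature, took up 42.2% to 45.7% of TPM in 5 libraries but 37.3% in normal-pressure replicate 2. Differences were tested with limma on log2(TPM + 1) over the 17120 features with at least 1 TPM in at least 3 libraries, with Benjamini-Hochberg adjustment and a two-sided threshold of 0.05. On this scale the change of a gene near 1 TPM is understated.

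Sequence elements are shown first for the genes in which they were found, because cytoplasmic polyadenylation elements are the letters through which CPEB1 acts on stored messages. The last 100 bases of 1 transcript per gene (GENCODE M21, GRCm38) were searched on the transcript strand for TTTTAT or TTTTAAT. They were present in 3 of the 10 genes, Ddx4, Ybx2 and Btg4, and in 17.9% of the 19376 protein-coding genes with at least 100 bases after the stop codon. The match in each is shown in capitals within 30 bases of the 3′ untranslated region, written as DNA, 5′ to 3′. The Btg4 site lies at chr9:51119797-51119826 on the plus strand, 67 bases from the annotated end, the Ybx2 site at chr11:69941532-69941561 on the plus strand, 62 bases from the end, and the Ddx4 site at chr13:112598371-112598400 on the minus strand, 56 bases from the end.
Btg4: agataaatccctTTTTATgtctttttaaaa
Ybx2: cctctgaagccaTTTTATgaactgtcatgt
Ddx4: acaaatgtttgcTTTTATaatatacagatt
The poly(A) signals AATAAA or ATTAAA were found in the same window of the other 7 genes and of Ddx4, and in 78.8% of all genes searched. These matches are descriptions of letters in a fixed window, and no match says only that the letters are not in it. The RefSeq locus of Btg4 ends further on, at 51119924, so its window and distance hold for the GENCODE end only.

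Promoters are shown for Btg4 and Zar1, which were higher under hypoxia, and for Lsm14b, which did not pass the test. RefSeq windows from 250 bases before to 50 after a start (GRCm38.p6) were matched for 9 of the 10 genes, all but Mos. They were searched for the E-box CANNTG, which reads the same on both strands and is the letter pattern bound by FIGLA and other basic helix-loop-helix factors, and which is in capitals below. The windows are chr9:51115751-51116050 on the plus strand for Btg4, chr5:72581035-72581334 on the minus strand for Zar1 and chr2:180024737-180025036 on the plus strand for Lsm14b. Those of Btg4 and Zar1 lie wholly inside the RefSeq loci (51102147 to 51119924 and 72577113 to 72581361), so they surround a start within the locus, not its outer edge.
Btg4: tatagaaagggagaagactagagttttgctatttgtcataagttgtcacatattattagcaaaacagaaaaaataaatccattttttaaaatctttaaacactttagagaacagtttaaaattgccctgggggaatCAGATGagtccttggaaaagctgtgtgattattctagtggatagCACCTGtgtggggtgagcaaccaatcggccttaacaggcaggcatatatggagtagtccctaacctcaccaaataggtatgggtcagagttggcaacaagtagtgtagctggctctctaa
Zar1: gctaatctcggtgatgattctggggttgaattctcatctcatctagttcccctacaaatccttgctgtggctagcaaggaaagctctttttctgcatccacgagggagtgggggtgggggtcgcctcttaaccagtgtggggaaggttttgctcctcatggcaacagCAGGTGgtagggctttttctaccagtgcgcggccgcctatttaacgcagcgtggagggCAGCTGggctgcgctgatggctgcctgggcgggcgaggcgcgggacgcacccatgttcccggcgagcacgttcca
Lsm14b: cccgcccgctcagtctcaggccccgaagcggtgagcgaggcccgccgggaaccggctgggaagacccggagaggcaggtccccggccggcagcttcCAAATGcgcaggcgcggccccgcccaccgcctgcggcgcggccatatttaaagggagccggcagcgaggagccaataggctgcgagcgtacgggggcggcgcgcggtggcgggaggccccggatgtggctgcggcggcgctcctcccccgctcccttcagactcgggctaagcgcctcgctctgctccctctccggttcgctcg
All 9 genes held the pattern in their first listed window, as did 72.2% of the 27025 windows taken 1 per gene. The matches numbered 2 in Btg4, Zar1 and Cpeb1, 3 in Mael and 1 in Dazl, Ybx2, Lsm14b, Patl2 and Ddx4. The number of matches thus did not follow the calls. The Zar1 match nearest the start has the form CAGCTG, found in 16.1% of windows. The NOBOX-type letters TAATTG or TAATTA, searched on both strands, were in none of the 9 first windows and in 12.6% of all.

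The comparison asked how the transcripts of these genes differ in the ovary after exposure to low pressure. Of the 10 genes 5 were higher under hypoxia, by 1.48-fold to 1.76-fold in mean TPM: the kinase gene Mos, the deadenylase adaptor gene Btg4, the zygote arrest gene Zar1, the Y-box protein gene Ybx2 and the translational regulator gene Dazl. Cpeb1 and Lsm14b did not pass the test, and Ddx4, Patl2 and Mael were below the level needed for testing. None was lower. The 5 called genes compare with 11.1% of all tested features called higher and 7.20% called lower (1906 and 1233 features, or 2745 and 3206 with median-ratio scaling, under which 5 members were still higher). Hypoxia values lay above every normal-pressure value for 6 tested genes, the 5 called ones and Cpeb1, a pattern shown by 27.6% of tested features. In whole ovary, a change in the number of oocytes relative to other cells and a change in RNA per oocyte cannot be told apart.

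RNA of other cell types' markers moved with these values. Of 8 luteal markers all 8 fell, with a summed level of 2869 to 4749 TPM in normal-pressure libraries and 564 to 1130 TPM in hypoxia libraries. With no filter or with robust variance 5 fell. Much of the sum is Cyp11a1, which averaged 2607 TPM at normal pressure and 688 TPM under hypoxia. All 5 erythroid markers rose, from a sum of 247 to 447 TPM to a sum of 1663 to 2240 TPM. Of 10 granulosa markers 2 rose and 2 fell, with sums of 2130 to 2313 TPM and 2534 to 2824 TPM, of which Inha alone averaged 1146 and 1323 TPM. Of 5 theca markers 4 rose (129 to 204 TPM and 228 to 259 TPM), or 2 with no filter. Of 4 smooth muscle markers 2 fell (451 to 484 TPM and 346 to 398 TPM) and of 4 oviduct epithelium markers 1 fell (478 to 725 TPM and 202 to 404 TPM). None of the 4 endothelial markers (64.5 to 82.9 TPM and 80.9 to 82.0 TPM) or 4 macrophage markers (73.4 to 91.0 TPM and 73.9 to 78.1 TPM) passed the test. No marker of these lists was at 0 in any library, and the part of these shifts in the changes below was not tested.

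**Figure D1:**
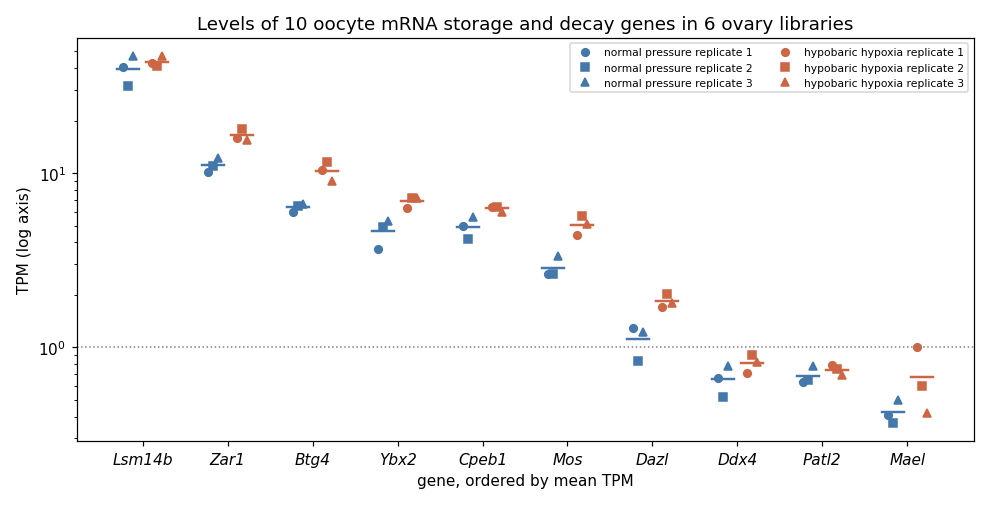
TPM of each of the 10 genes (log axis) in 3 normal-pressure (blue) and 3 hypobaric hypoxia (orange) libraries, with marker shapes for replicates, horizontal bars at group means and a dotted line at 1 TPM. Lsm14b stands highest at 31.7 to 46.9 TPM with overlapping groups, and Ddx4, Patl2 and Mael sit near or below 1 TPM.

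Levels, which TPM allows to be compared between genes, spanned a wide range. Mean TPM over the 6 libraries placed Lsm14b first at 41.6, followed by Zar1 at 13.8, Btg4 at 8.33, Ybx2 at 5.77, Cpeb1 at 5.59, Mos at 3.96 and Dazl at 1.48. Ddx4 at 0.733, Patl2 at 0.715 and Mael at 0.552 came last. The order of Ybx2 and Cpeb1, and that of Ddx4, Patl2 and Mael, differed between libraries, so the order within each of these is not resolved. Ranges of some other neighbours over the 6 libraries overlap too, such as those of Zar1 and Btg4, but their order was the same in every library. Lsm14b lay above 87.2% of tested features by mean TPM, Zar1 above 57.8%, Btg4 above 43.9% and Dazl above 8.18%. The sum of 21 other oocyte genes, among them Zp1 to Zp3 and Gdf9, is given for comparison. It was 191 to 243 TPM in normal-pressure libraries and 297 to 358 TPM in hypoxia libraries. Ddx4, a defining germ cell marker, was nonetheless below 1 TPM in all 6 libraries. The sum does not show which ovarian cells gave the RNA of the genes described here, and that was not tested. Lsm14b averaged 39.7 TPM at normal pressure and 43.6 TPM under hypoxia, and its relative Lsm14a 42.9 and 48.2 TPM. The log2 fold change of Lsm14b was 0.15, against a median of 0.63 for the tested oocyte genes.

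The storage proteins come first. Ybx2 (chromosome 11, 69935805 to 69941604, GRCm38.p6) encodes MSY2, the germ cell Y-box protein that packages and stabilises stored messages in oocytes. It measured 3.69, 4.93 and 5.33 TPM in normal-pressure replicates 1, 2 and 3 and 6.29, 7.15 and 7.24 TPM in hypoxia replicates 1, 2 and 3. The groups did not overlap, and normal-pressure replicate 1 was the lowest. The rise from 4.65 ± 0.855 to 6.89 ± 0.524 TPM (SD, n = 3 each) gave a log2 fold change of 0.49 (SE 0.13, limma adjusted p = 0.0186). It did not pass without normal-pressure replicate 1 (log2 fold change 0.36, adjusted p = 0.105), with quantile (adjusted p = 0.0606) or median-ratio scaling (adjusted p = 0.0655), or with no filter on low values (adjusted p = 0.107).

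Zar1 (chromosome 5, 72577113 to 72581361), needed in mice for the passage from egg to embryo, encodes an oocyte protein that binds stored messages. Its level was 10.1, 10.9 and 12.3 TPM in controls 1 to 3 (normal pressure) and 16.0, 17.9 and 15.5 TPM in exposed libraries 1 to 3. Every hypoxia library exceeded every control, and spreads were narrow in both groups. Means of 11.1 ± 1.09 and 16.4 ± 1.27 TPM gave a log2 fold change of 0.53 (SE 0.12, limma adjusted p = 0.00485). Zar1 passed in all 16 alternatives other than scaling to oocyte genes, with log2 fold changes of 0.44 to 0.60 and adjusted p of 0.000202 to 0.0408.

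Lsm14b (chromosome 2, 180024900 to 180035466) encodes an RAP55-family protein of messenger ribonucleoprotein particles that mouse oocytes need for meiotic progression. Controls held 40.5, 31.7 and 46.8 TPM, and exposed libraries 42.8, 41.2 and 46.9 TPM. The groups overlapped almost fully, with normal-pressure replicate 2 the one low value. The log2 fold change was 0.15 (95% interval -0.13 to 0.43, limma adjusted p = 0.459), and without normal-pressure replicate 2 it was 0.00 (adjusted p = 0.994). Patl2 (chromosome 2, 122120108 to 122186189), whose human counterpart is mutated in oocyte maturation defects, encodes an oocyte translational repressor. It measured 0.63, 0.65 and 0.78 TPM, then 0.79, 0.75 and 0.69 TPM under hypoxia. The RefSeq locus of Patl2 spans the whole of B2m (190 to 255 TPM), and the counting was not stated to use strand, so its low values are uncertain.

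Among the regulators of translation, Cpeb1 (chromosome 7, 81347026 to 81458001) encodes the protein that binds cytoplasmic polyadenylation elements and both represses and activates stored messages. The 3 control levels were 4.94, 4.16 and 5.61 TPM, and the 3 exposed levels 6.41, 6.39 and 6.01 TPM. The groups did not overlap, yet the log2 fold change of 0.31 (95% interval 0.04 to 0.57) did not pass after adjustment (limma adjusted p = 0.103). It passed with quantile (adjusted p = 0.0237), median-ratio (adjusted p = 0.0300) and protein-coding total scaling (adjusted p = 0.0139). Over the 16 alternatives, adjusted p ran from 0.0139 to 0.278.

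Dazl (chromosome 17, 50279393 to 50293620) encodes a germ cell RNA-binding protein that promotes translation of target messages during oocyte maturation. At normal pressure it reached 1.29, 0.84 and 1.22 TPM, and under hypoxia 1.70, 2.02 and 1.80 TPM. The hypoxia libraries were all higher, by 1.65-fold in mean TPM (1.12 ± 0.242 and 1.84 ± 0.164 TPM), with a log2 fold change of 0.43 (SE 0.14) that sat close to the threshold (limma adjusted p = 0.0480). Leaving out any 1 library other than normal-pressure replicate 1 lost the call, with adjusted p of 0.0616 to 0.155, as did a pseudocount of 0.1 (log2 fold change 0.69, adjusted p = 0.0605) and no filter (adjusted p = 0.122).

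Mos (chromosome 4, 3870658 to 3872105) encodes the kinase that starts the MAPK cascade of meiotic maturation and holds the egg at metaphase II, and its message is a known target of cytoplasmic polyadenylation. Its message stood at 2.64, 2.62 and 3.34 TPM in controls, against 4.40, 5.66 and 5.11 TPM after exposure. The lowest hypoxia value exceeded the highest control. Means of 2.87 ± 0.410 and 5.06 ± 0.632 TPM stood 1.76-fold apart, at a log2 fold change of 0.65 (SE 0.13, limma adjusted p = 0.00343), and the call was lost with no filter (adjusted p = 0.0530).

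For decay, Btg4 (chromosome 9, 51102147 to 51119924) encodes the adaptor that brings the CCR4-NOT deadenylase to maternal messages in maturing mouse eggs. Control values were 5.98, 6.46 and 6.67 TPM, and exposed values 10.4, 11.5 and 9.0 TPM. Controls were tightly grouped, and hypoxia replicate 3 was the lowest of the exposed libraries but still above them. The mean of Btg4 rose from 6.37 ± 0.354 TPM to 10.3 ± 1.26 TPM, a log2 fold change of 0.61 (SE 0.12, limma adjusted p = 0.00251), and it passed in all 16 alternatives other than scaling to oocyte genes, with adjusted p of 1.94e-05 to 0.0366. Its RefSeq locus overlaps Hoatz, Mir34b and Mir34c.

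The germ granule genes were barely detected. Ddx4 (chromosome 13, 112598333 to 112652633), the mouse vasa homologue, encodes a DEAD-box RNA helicase. Readings of 0.67, 0.52 and 0.78 TPM in controls and 0.71, 0.90 and 0.82 TPM after exposure were all low. These values overlap, and the log2 fold change without the filter was 0.13 (limma adjusted p = 0.519). Mael (chromosome 1, 166201385 to 166238744), which acts in piRNA silencing of transposons, measured 0.41, 0.37 and 0.50 TPM, then 1.01, 0.60 and 0.42 TPM. Only hypoxia replicate 1 reached 1 TPM, the groups overlapped, and the log2 fold change without the filter was 0.22 (limma adjusted p = 0.414). With no filter all 10 genes were tested and 2 passed, Btg4 and Zar1, where 2.08% of 33036 features were called higher, and Patl2 had a log2 fold change of 0.05 (limma adjusted p = 0.793). Each of the 7 genes tested in the filtered table had reached 1 TPM in 5 or 6 libraries.

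The same 21 oocyte genes served as a yardstick. Of their 19 tested members 17 rose and none fell, with a median log2 fold change of 0.63 against 0.08 over all tested features. The highest were Nlrp14 (0.77), Bmp15 (0.69), a secreted oocyte growth factor, and the zona pellucida gene Zp1 (0.69), and the lowest among those called were Dppa3 (0.45), Npm2 (0.40) and Tle6 (0.36). Dppa3 and Tle6 each passed in 10 of the 16 alternatives. The number of oocyte genes that rose ran from 9 of 21 with no filter to 18. It was 14 without control 1 or exposed library 2 and 15 with median-ratio scaling. Per library, the summed oocyte genes stood at 1.58, 1.69 and 1.40 times the normal-pressure mean in hypoxia replicates 1, 2 and 3. Btg4 stood at 1.63, 1.81 and 1.41 times its own normal-pressure mean in those libraries, and Zar1 at 1.44, 1.61 and 1.39 times. Mos stood at 1.53, 1.97 and 1.78 times, whereas Lsm14b stood at 1.08, 1.04 and 1.18 times. Dazl stood at 1.52, 1.81 and 1.61 times, Ybx2 at 1.35, 1.54 and 1.56 times and Cpeb1 at 1.31, 1.30 and 1.23 times. Btg4 and Zar1 shared the order of the yardstick across the hypoxia libraries, with replicate 2 highest and replicate 3 lowest. Mos, Dazl, Ybx2, Cpeb1 and Lsm14b did not share it. How many other features have that order was not counted, so a shared order over 3 libraries does not show that a gene tracks the yardstick.

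**Figure D2:**
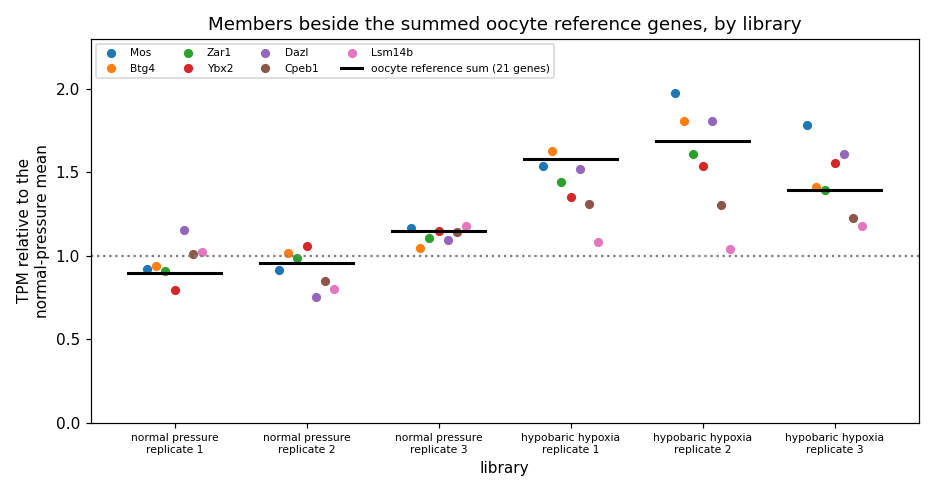
TPM of the 7 tested genes in each library divided by the gene's normal-pressure mean (points), beside the same ratio for the summed TPM of 21 other oocyte genes (black lines), with a dotted line at 1. In the hypoxia libraries Btg4, Zar1 and Mos lie near or above the oocyte sum of 1.58, 1.69 and 1.40, and Lsm14b lies near 1.

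When each library was scaled so that these oocyte genes had equal mean log2(TPM + 1), no member was called higher. Relative to the other oocyte genes, Zar1 differed by 0.01 (95% interval -0.28 to 0.30), Btg4 by 0.09 (-0.22 to 0.40), Mos by 0.12 (-0.21 to 0.46) and Ybx2 by -0.03 (-0.36 to 0.29) on the log2 scale. Dazl differed by -0.09 (-0.48 to 0.30) and Cpeb1 by -0.22 (-0.54 to 0.11). Intervals of this width do not show that the genes moved alike. Lsm14b was lower relative to the oocyte genes by a log2 fold change of -0.37 (-0.67 to -0.08, limma adjusted p = 0.0252), as were 64.1% of all tested features, while 0.625% were higher. That call held without normal-pressure replicate 2 (adjusted p = 0.00346) or hypoxia replicate 3 (adjusted p = 0.0174) and was lost without any 1 of the other 4 libraries (adjusted p = 0.0939 to 0.145).

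**Figure D3:**
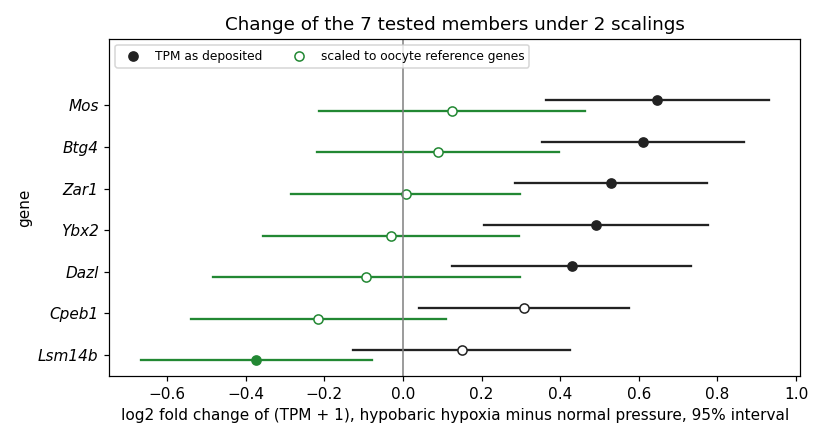
Log2 fold change of (TPM + 1), hypobaric hypoxia minus normal pressure, with 95% intervals for the 7 tested genes, on TPM as deposited (black) and after scaling to 21 other oocyte genes (green), filled where the adjusted p was under 0.05. As deposited, Dazl, Ybx2, Zar1, Btg4 and Mos are filled at 0.43 to 0.65, and after scaling Lsm14b alone is filled, at -0.37.

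Paralogs of several of the genes were measured, and for 6 genes the families are compared below. Ybx1, the ubiquitous Y-box protein gene, fell while Ybx2 rose, with 198 ± 18.3 TPM in controls and 134 ± 5.70 TPM after exposure (log2 fold change of -0.56 ± 0.11, SE, limma adjusted p = 0.00262). Zar1l, the close relative of Zar1, rose from 2.26 ± 0.544 to 3.85 ± 0.389 TPM (limma adjusted p = 0.0103). Btg3 fell by 0.37 on the log2 scale (limma adjusted p = 0.0442), a call lost without any 1 library except normal-pressure replicate 2. In all, 1 of 13 paralogs rose and 2 fell, with a median of -0.06, where 11.1% of all tested features were called higher and 7.20% lower. The falls numbered 5 with median-ratio scaling, which called 3206 of 17120 features lower. Leaving out normal-pressure replicate 2 also gave 5 falls, beside 2143 of 16950 features lower. Leaving out control 1, control 3 or exposed library 2 gave 1, beside 939, 795 and 895 features lower. Apart from the median-ratio counts, the median and calls are on TPM as deposited. Scaled to oocyte genes, 12 of the 13 paralogs were lower, as were 64.1% of all tested features.

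The share of each gene in its family's summed TPM puts these values on 1 scale. Ybx2 made up 1.40%, 2.07% and 1.84% of Y-box TPM in controls and 2.95%, 3.67% and 3.57% in the hypoxia libraries. Btg4 made up 7.94%, 9.95% and 8.40% of Btg1 to Btg4, then 14.7%, 16.5% and 13.0%. Cpeb1 made up 12.9%, 14.5% and 15.1% of Cpeb1 to Cpeb4, then 18.9%, 18.8% and 17.2%. In these 3 families the groups were fully separated, and the two-sided exact permutation p was 0.10, the smallest that 3 against 3 allows (0.20 adjusted over 6 families). Zar1 held 83.2% ± 1.95 and 81.0% ± 2.31 (SD, n = 3) of Zar1 with Zar1l (exact permutation p = 0.20), Lsm14b 47.9% ± 2.43 and 47.5% ± 1.99 of Lsm14a with Lsm14b (p = 0.70) and Patl2 5.50% ± 0.487 and 5.38% ± 0.296 of Patl1 with Patl2 (p = 0.80).

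**Figure D4:**
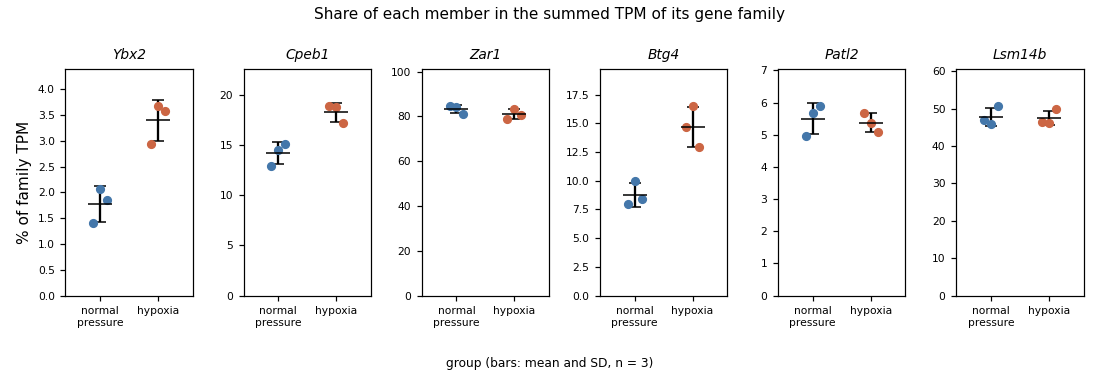
Share of each gene in the summed TPM of its family (percent), per library (points) with mean and SD (bars, n = 3), in normal pressure (blue) and hypobaric hypoxia (orange); each panel has its own axis from 0. Ybx2, Cpeb1 and Btg4 take larger shares in all 3 hypoxia libraries, and Lsm14b stays at 46.0% to 50.6% throughout.

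Most genes of the wider lists on message storage and decay did not pass the test. Over all tested features, 11.1% were called higher and 7.20% lower. Of 22 deadenylation genes 4 rose and none fell on TPM as deposited (median 0.19): Pan2, a subunit of the first-acting poly(A) nuclease, by 0.48, the CCR4-NOT genes Cnot6l and Cnot10 by 0.36 each and the decay factor gene Zfp36l2 by 0.34 on the log2 scale. CNOT6L and ZFP36L2 are known to act in maternal message decay in mouse oocytes. The number that rose ran from 0, without hypoxia replicate 2 or with no filter, to 12 with quantile normalization. It was 1 without hypoxia replicate 1 or 3 or with no mean-variance trend, 2 without normal-pressure replicate 1 or with a pseudocount of 0.1, and 11 with protein-coding total scaling. With protein-coding total, quantile or median-ratio scaling, with protein-coding genes alone or when control 2 was left out, 2 fell, and with robust variance, the replicate block or when exposed library 3 was left out, 1 fell. Scaling to oocyte genes turned the direction, with 13 of the 22 lower and none higher, as it did for 64.1% of all features.

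In the list of decapping, 5′-to-3′ decay and tail uridylation, 1 of 20 rose, Tut4, and none fell (median 0.15). Tut4 encodes a terminal uridylyl transferase that marks messages with short tails, and stood at 63.7, 51.1 and 61.2 TPM in controls and 95.2, 108 and 93.9 TPM after exposure. The groups were far apart (log2 fold change 0.75, SE 0.12, limma adjusted p = 0.000400), and Tut4 passed in all 16 alternatives. Its relative Tut7 measured 30.8 ± 4.38 and 33.6 ± 1.23 TPM and did not pass (limma adjusted p = 0.486). In the list of cytoplasmic polyadenylation and translational repression, 1 of 19 rose, and none fell (median 0.20). This was Eif4e1b, an oocyte form of the cap-binding protein, from 6.51 ± 0.729 to 10.8 ± 1.63 TPM (limma adjusted p = 0.00309). With quantile or protein-coding total scaling 4 genes of the decapping list and 9 of the polyadenylation list rose. Those scalings called 3399 and 3752 of the 17120 tested features higher. Relative to oocyte genes, 12 genes of the decapping list and 10 of the polyadenylation list were lower and none was higher. Under that scaling 64.1% of all tested features were lower. Leaving out control 2 gave 2 decapping genes that rose, and leaving out control 3 gave 2 polyadenylation genes.

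Germ granule and piRNA genes were mostly low, with 12 of 22 tested. Of these 4 rose and none fell (median 0.24). Tdrd5, a Tudor protein gene of the germ granule, reached 17.4, 15.7 and 17.9 TPM in controls and 32.9, 40.0 and 32.2 TPM after exposure. It was the most changed gene of the lists on storage and decay (log2 fold change 1.00, SE 0.12, limma adjusted p = 3.44e-05), passed in all 16 alternatives and was higher also after scaling to oocyte genes (log2 fold change 0.48, adjusted p = 0.00475). Gtsf1, a piRNA pathway factor gene, rose by 0.64, Elavl2, an RNA-binding protein gene, by 0.55 and Tdrd1 by 0.47 on the log2 scale. The number that rose was 2 with no filter and 1 at a minimum of 5 TPM, where 2 were tested. Relative to oocyte genes 1, Tdrd5, was higher and 3 were lower, beside 0.625% and 64.1% of all tested features.

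Downstream of Mos, 8 of 17 tested genes of the MAPK cascade and metaphase II arrest rose and none fell (median 0.31). The highest were Wee2, the oocyte kinase that holds CDK1 inactive, at 0.55, Pkmyt1, a related kinase gene, at 0.47 and the anaphase activator gene Cdc20 at 0.43, and the lowest among those called were Cdk1 (0.41), its cyclin gene Ccnb1 (0.40) and Plk1 (0.39). All but Wee2 of these are used by dividing somatic cells too. The count was 2 without hypoxia replicate 1, 1 without hypoxia replicate 2, 4 without normal-pressure replicate 1 and 0 of 19 with no filter, and 3 genes fell with median-ratio or protein-coding total scaling, as when normal-pressure replicate 2 was left out. Relative to oocyte genes 6 were lower and none higher, beside 64.1% of all tested features lower.

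**Figure D5:**
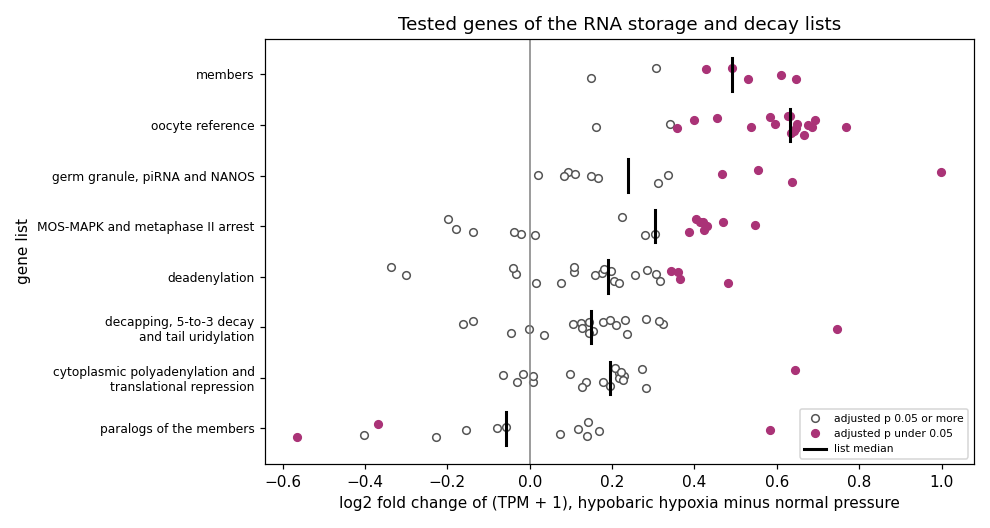
Log2 fold change of (TPM + 1), hypobaric hypoxia minus normal pressure, for each tested gene (points, filled where the adjusted p was under 0.05) of 8 gene lists, with list medians as black bars. Oocyte genes cluster around 0.63, Tdrd5 stands at 1.00 and Tut4 at 0.75, and the paralogs spread around -0.06.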

How the data were processed

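Whole-ovary RNA went into SMARTer mRNA libraries, per the labels' protocols. HISAT2, Bowtie2, DESeq2 and the build GRCm38.p6 appear in the submitters' processing notes, with neither role nor version. The read counter, its strand setting, annotation and filters are not stated. The authors deposited TPM values, 1 column per library, matched to samples by title. Here log2(TPM + 1) was fitted with limma 3.58.1 under R 4.3.3, using a mean-variance trend and no covariate, on features with at least 1 TPM in at least 3 libraries; the procedure was tested on simulated data. All 10 genes were named, and of each list of related genes the 3 called genes with the highest and the 3 with the lowest log2 fold change, plus family members shown beside them. The genes and lists were chosen with earlier results of these data known. Alternatives were a pseudocount of 0.1, no filter, a minimum of 5 TPM, quantile, median-ratio, protein-coding total and oocyte-gene scaling, protein-coding genes alone, robust variance, no trend, a replicate block, and leaving out each library. Gene loci and promoters came from RefSeq (GRCm38.p6), with all 10 genes matched by symbol, and transcript ends from GENCODE M21, taking the principal transcript with the longest untranslated end.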

Additional observations from a re-analysis of the deposited data

How the results depend on the processing

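The count of members higher under hypoxia was 5 and stayed at 4 to 6 under the other alternatives, but was 2 with no filter on low values, 3 of 5 tested at a minimum of 5 TPM, where Dazl and Mos were not tested, and 0 with oocyte-gene scaling. It was 4 when any 1 library was left out. No member was lower except under oocyte-gene scaling, which called 1, Lsm14b, at a log2 fold change of -0.374. Leaving out 1 library under that scaling, a step added after seeing the data, gave a count lower of 0 to 1 and a count higher of 0 throughout. Oocyte-gene scaling also turned the sign of Dazl (a log2 fold change of -0.0934), Ybx2 (-0.0307) and Cpeb1 (-0.215); it subtracts the rise of the oocyte genes by construction. Scaling moved the median of all tested features from 0.08 to 0.00 (median-ratio) and -0.44 (oocyte genes). Same-numbered libraries of the 2 groups deviated together with r = -0.03, 0.11 and -0.05, and beyond the exposure days in the descriptions no label ties them; with a replicate block 5 members were higher and none lower, and 2521 features were higher and 1596 lower where 1906 and 1233 were without it. Not every library correlated best with its own number. Over the whole table, counts higher and lower were 687 and 546 with no filter, 3399 and 2772 with quantile normalization, 3752 and 2523 on the protein-coding total, 2745 and 3206 by median ratio and 107 and 10980 with oocyte-gene scaling. Leaving out a library gave 1855 and 2143 (control 2), 2044 and 795 (control 3), 1239 and 1135 (exposed library 1) or 1170 and 895 (exposed library 2). Read depth is not kept in TPM, which limits what can be said of Ddx4, Patl2 and Mael.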
